A study of Triticum aestivum with 4 samples.

Results

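Transcripts with a glutaredoxin-related, a peroxidase or an aldo/keto reductase match were followed on the wheat array through 3 sequence clusters, 1 for each. All probe sets of these clusters were taken, 3 of the glutaredoxin-related cluster, 6 of the peroxidase cluster and 3 of the aldo/keto reductase cluster. They are 12 in total of 61115 on the array once controls were set aside. A probe set is a group of short probes read together as 1 signal, and its name on the array gives the cluster and then the number of a sequence within it. Ta.23165.1.S1_at, Ta.23366.1.S1_at and Ta.25492.2.S1_at, for example, read sequence 1 of the glutaredoxin-related cluster, sequence 1 of the peroxidase cluster and sequence 2 of the aldo/keto reductase cluster. Probe sets are named below by cluster and sequence number, and their names on the array stand beside the points in the plot of signals by array. The clusters were chosen by their signals on these same 4 arrays, because 6 of the 12 probe sets stand in the study's lists of changed transcripts. Levels and differences between the lines are therefore given as a description. The matches are to rice and Arabidopsis genes, since 0 of the 12 have a gene in the platform annotation. They are those of the 6 listed probe sets, and the other 6 take their family from the cluster alone. For the glutaredoxin-related cluster, only the Arabidopsis match is of that kind, while the rice match is a putative retrotransposon protein. No probe set sequence was analysed here.

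Bread wheat (Triticum aestivum) of 2 groups was compared, with 2 arrays in each. The WT group is the spring genotype CB037. The UD-2 group is CB037 with the event pPTN1034-NN569-3-5-1, which carries maize Dof1 (ZmDof1), a zinc finger transcription factor, behind the sugarcane polyubiquitin promoter UBI4, and the selection marker nptII. It was taken in the T2 generation. That promoter is active in all tissues, and UD-2 is a single insertion event, so that ZmDof1 and the event itself cannot be told apart. Each array held flag leaf RNA from 3 plants at anthesis, and the pools shared no plant. Both lines grew side by side in a greenhouse with 10 h and 14 h photoperiod phases, at 29°C by day and 24°C by night, under normal water and fertilizer. Whether the pools of a line stand for separate sowings is not stated, so that the spread between them may cover only plants within 1 experiment. The level of ZmDof1 itself was not analysed here.

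Glutaredoxins are small enzymes that reduce disulfide bonds with the help of glutathione, and in plants they act in redox signalling and development. Class III peroxidases are secreted heme enzymes that use hydrogen peroxide to oxidise phenolic compounds, among them the building blocks of lignin, and they also act in defence. Aldo/keto reductases use NADPH to turn aldehydes and ketones into alcohols, and in plants several of them remove reactive carbonyls formed under stress. Bread wheat is polyploid, so that a cluster can hold sequences of closely related gene copies. Names that end in _x_at mark probe sets with probes shared between sequences, and such signals can be mixed.

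The arrays were alike, with Pearson's r of 0.994 over all probe sets between the arrays of either line and of 0.984 to 0.991 between lines, where the probe sets are no replicates. Leaf transcripts had bright probe sets on every array. The brightest probe set for the Rubisco large subunit gene rbcL had a log2 signal of 14.54 to 14.57, and those for PsbO and PsbP of photosystem II reached 13.23 to 13.42. The brightest of the 3 probe sets of PSBR, another photosystem II subunit, varied more, from 12.2 to 13.7 over the arrays, and was lower on both UD-2 arrays. All 3 PSBR probe sets were called different between the lines by the test used below, so that PSBR marks leaf here but was not unchanged. Values are log2 signals, so that a difference of 1 is a doubling. The background level was set on each array at the 95th percentile of 42 Bacillus control probe sets and lay between 3.93 and 4.17. Of the 28 probe sets for rbcL, only 12 were above that level on all 4 arrays. All 3 for PsbO and PsbP and all 3 for PSBR were above it. RNA from whole leaves cannot tell a change per cell from a change in which cells are present.

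Of the 12 probe sets, limma called 4 higher and 2 lower in UD-2, at the threshold of 0.05 for the adjusted p. Over all probe sets, 0.430% were called higher (263) and 0.281% lower (172). Median centring of the arrays turned that split into 797 higher and 319 lower. The calls are those that brought the clusters into this account, and nothing is read from their number. The other 6 probe sets did not pass the threshold. The calls rest on all 4 arrays together. With any 1 array left out, 1 line has a single array, and those fits are given further below by their log2 differences only. The values of the lines did not overlap for 9 of the 12, against 48.1% of all probe sets. Among the 9 is Ta.25492.2.S1_at, which was under the background level on all 4 arrays. Nothing is read from this count either, since the clusters were chosen by the same difference between the lines. The median log2 difference was 0.11 over the 12 and −0.02 over all probe sets.

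**Figure D1:**
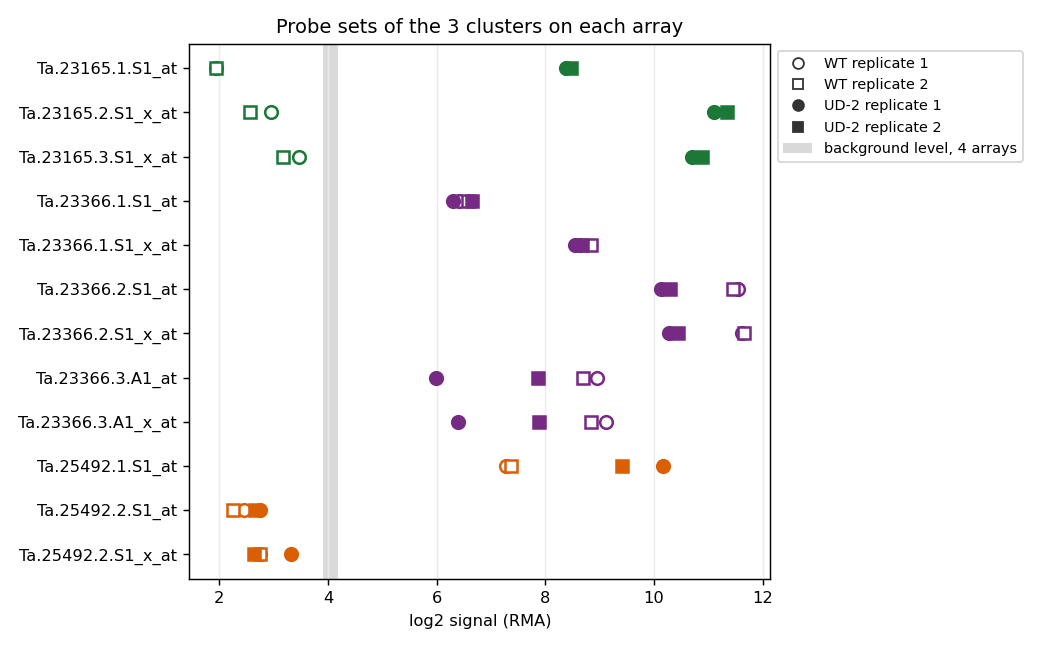
Log2 signal (horizontal axis) of the 12 probe sets of the glutaredoxin-related (green), peroxidase (purple) and aldo/keto reductase (orange) clusters on each of the 4 arrays, with open symbols for WT, filled symbols for UD-2 and a grey band for the background level of 3.93 to 4.17. The glutaredoxin-related cluster lies under the band in WT and far above it in UD-2, the 3 peroxidase pairs differ in their shift, and only 1 of the 3 aldo/keto reductase probe sets is above the band.

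The glutaredoxin-related cluster was under the background level in WT and bright in UD-2 on all 3 of its probe sets. Sequence 2, read by an _x_at probe set, had a log2 signal of 2.96 in WT replicate 1 and 2.57 in WT replicate 2, and of 11.11 and 11.34 in the same order in UD-2. Sequence 3 (Ta.23165.3.S1_x_at) read 3.46 and 3.16 in WT against 10.70 and 10.89 in UD-2. Sequence 1 (Ta.23165.1.S1_at) read 1.93 and 1.94 in WT against 8.38 and 8.46 in UD-2. The lines did not overlap on any of the 3, and UD-2 replicate 2 was the brighter UD-2 pool on all 3 probe sets.

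The log2 difference was 8.46 for sequence 2 (standard error 0.17, n = 2 per line), 7.48 for sequence 3 (standard error 0.15) and 6.49 for sequence 1 (standard error 0.11). Standard errors here and below are the moderated ones of limma. Each draws the variance of its probe set toward that of all probe sets, and so does not measure the spread between its own pools alone. Since WT signals under the background level only bound the transcript from above, the fold was also taken against that level. On that basis the 3 signals were at least 134-fold, 99.4-fold and 19.2-fold higher in UD-2. With the background level at the 90th or 99th percentile of the Bacillus controls, the first of these became at least 164-fold or 107-fold, the second 122-fold or 79.6-fold and the third 23.6-fold or 15.4-fold. The Arabidopsis match of the cluster is glutaredoxin-related, while its rice match is a putative retrotransposon protein, and 2 of the 3 probe sets are of the _x_at kind. Which transcript gave the signal was not tested.

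The peroxidase cluster was measured by 6 probe sets that form an _at and _x_at pair on each of its sequences 1, 2 and 3. Only sequence 2 has a match of its own, to Arabidopsis peroxidase 12. Sequences 1 and 3 are taken as peroxidase by their cluster. The pairs differed from each other. Sequence 2 was lower in UD-2 by about the same amount on both pools. Sequence 3 was lower on both pools but by very unequal amounts, and sequence 1 overlapped between the lines.

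For peroxidase sequence 2, the _at probe set gave log2 signals of 11.55 and 11.46 in WT and 10.13 and 10.30 in UD-2. The _x_at probe set gave 11.63 and 11.65 in WT and 10.27 and 10.45 in UD-2. The signal was 2.44-fold lower on the first (log2 difference −1.29, standard error 0.12, n = 2 per line) and 2.43-fold lower on the second (−1.28, standard error 0.12). The lowest WT value exceeded the highest UD-2 value by more than 1 on both, and the difference between the lines was 7.35 and 7.27 times the larger difference between pools of a line. These are the 2 probe sets of the cluster that passed the threshold.

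For peroxidase sequence 3, Ta.23366.3.A1_at had 8.95 and 8.70 in WT, and 5.99 in UD-2 replicate 1 against 7.87 in UD-2 replicate 2. Ta.23366.3.A1_x_at had 9.11 and 8.84 in WT, and 6.39 against 7.88 in the UD-2 pools. Both probe sets had all WT values above all UD-2 values, and UD-2 replicate 1 was below UD-2 replicate 2 by 1.88 on the first and 1.49 on the second. The mean log2 differences were −1.90 (moderated standard error 0.57) and −1.84 (moderated standard error 0.46), which are larger than those of sequence 2 but did not pass the threshold. The standard deviation between the UD-2 pools themselves was 1.33 on the first probe set and 1.05 on the second. With UD-2 replicate 1 alone, the first was −2.84, or 7.15-fold lower than the WT mean, and with UD-2 replicate 2 alone it was −0.96, or 1.95-fold lower. For the second, the values with 1 pool alone were −2.58 and −1.09.

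For peroxidase sequence 1, Ta.23366.1.S1_at read 6.41 and 6.58 in WT against 6.31 and 6.65 in UD-2. Ta.23366.1.S1_x_at read 8.64 and 8.83 in WT against 8.55 and 8.67 in UD-2. The lines overlapped on both, and the log2 differences of −0.02 (standard error 0.15) and −0.13 (standard error 0.13) were smaller than the larger difference between pools of a line. All 6 peroxidase probe sets were above the background level on all 4 arrays.

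In the aldo/keto reductase cluster, only sequence 1 has a match of its own, to the oxidoreductase ATB2 of Arabidopsis. Its probe set was also the only 1 of the 3 above the background level. It had log2 signals of 7.27 and 7.36 in WT, and 10.16 in UD-2 replicate 1 against 9.40 in UD-2 replicate 2. Both UD-2 pools were at least 2.05 above both WT pools on the log2 scale. The mean log2 difference was 2.47 (standard error 0.25, n = 2 per line), which is 5.53-fold. With a single UD-2 pool set against the WT mean, it was 7.20-fold for replicate 1 and 4.25-fold for replicate 2. The difference between the lines was 3.25 times that between the UD-2 pools.

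The pair on sequence 2 of that cluster was under the background level on all 4 arrays, and no fold is given for it. Ta.25492.2.S1_at had 2.45 and 2.25 in WT and 2.75 and 2.66 in UD-2. Ta.25492.2.S1_x_at had 2.75 in both WT pools and 3.32 and 2.63 in UD-2, so that the lines overlapped. At these signals a change in the transcript was not detectable.

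A second transcript of the aldo/keto reductase family, Ta.26922.1.S1_at, lies outside the cluster and is the only probe set of its own. It read 9.98 and 9.78 in WT and 12.23 and 11.62 in UD-2, a log2 difference of 2.05 (standard error 0.22, n = 2 per line). UD-2 replicate 1 was the brighter UD-2 pool, as for sequence 1 of the cluster. The study listed this probe set from the same arrays, so that it is no independent support for that cluster.

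The difference between the pools of a line reached higher values in UD-2 than in WT. Over all probe sets the median absolute difference between pools was 0.14 on the log2 scale in WT and 0.15 in UD-2, and its 95th percentile was 0.49 and 0.52. In UD-2 the difference reached 1.88 for Ta.23366.3.A1_at, 1.49 for Ta.23366.3.A1_x_at, 0.76 for aldo/keto reductase sequence 1 and 0.69 for Ta.25492.2.S1_x_at. Each was larger than in at least 98.8% of the 2000 probe sets nearest in mean UD-2 signal. On the other 8 probe sets the UD-2 pools differed by 0.08 to 0.34. In WT the largest difference was 0.39, for glutaredoxin-related sequence 2, where both pools were under the background level.

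Of the 9 probe sets on which the lines did not overlap, UD-2 replicate 1 lay farther from the WT mean on 6, which are those of the peroxidase sequences 2 and 3, that of aldo/keto reductase sequence 1 and the dim Ta.25492.2.S1_at. UD-2 replicate 2 lay farther on the 3 glutaredoxin-related probe sets. Over the 435 called probe sets of the array, UD-2 replicate 1 lay farther on 300 (69.0%), and over all probe sets on 56.3%. The part of this imbalance in the values of the peroxidase and reductase was not tested.

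**Figure D2:**
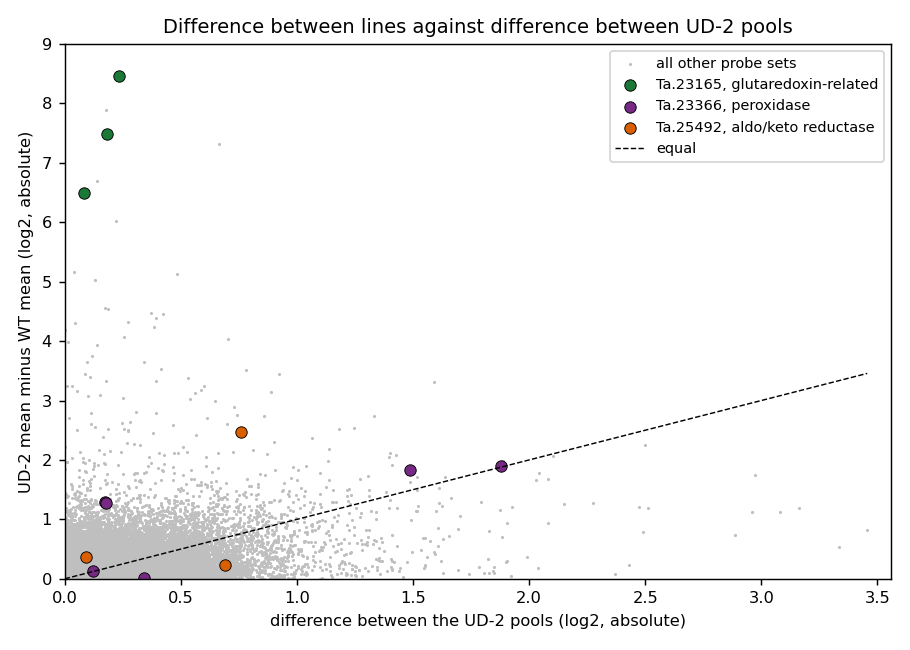
Absolute log2 difference between the UD-2 and WT means (vertical axis) against the absolute log2 difference between both UD-2 pools (horizontal axis), with 1 grey point per probe set of the array, coloured points for the 12 and a dashed line where both are equal. Both points of peroxidase sequence 2 fall on each other, the glutaredoxin-related probe sets stand at 6.49 to 8.46 with pool differences of 0.08 to 0.23, and Ta.23366.3.A1_at (log2 difference −1.90, pool difference 1.88) lies near the dashed line.

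Probe sets of 1 cluster often gave like differences on this array, and the 3 clusters were wider than most. The log2 differences within the peroxidase cluster spanned 1.88, against a median span of 0.44 over the 98 clusters with 6 probe sets, of which 5, itself included, spanned as much or more. Within the aldo/keto reductase cluster they spanned 2.24, against a median of 0.28 over the 2078 clusters with 3 probe sets, of which 5, itself included, spanned as much or more. Within the glutaredoxin-related cluster they spanned 1.97, where 7 clusters of the same size, itself included, spanned as much or more. Both of these spans rest in part on signals under the background level, those of sequence 2 of the aldo/keto reductase cluster and of WT in the glutaredoxin-related cluster, and so are no measure of how far the transcripts differ. A cluster chosen for a large difference can be wide for that reason alone.

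Paired probe sets on 1 sequence were close by comparison. The _at and _x_at probe sets of peroxidase sequence 2 gave log2 differences between the lines that were 0.01 apart, those of sequence 3 were 0.06 apart and those of sequence 1 were 0.11 apart. The median over 3037 such pairs on the array was 0.11 and their 95th percentile 0.38. The members of a pair can share probes and are not independent measurements. In the peroxidase cluster the log2 differences were farther apart between sequences than within pairs, where closeness can follow from shared probes.

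Other probe sets with the most similar course over the 4 arrays were sought by the Euclidean distance between log2 values centred on each probe set's own mean, leaving out the probe sets of the same cluster. Nearest outside its cluster to glutaredoxin-related sequence 2 was TaAffx.27775.1.S1_at, matched to the cysteine-rich receptor-like kinase CRK10, at a distance of 1.27, followed by the putative receptor kinase TaAffx.27177.1.S1_at at 3.34 and Ta.28339.1.S1_at, of no known function, at 3.90. These distances are wide against those of the other clusters and rest in part on WT signals under the background level. Nearest outside its cluster to the _at probe set of peroxidase sequence 2 was TaAffx.129824.10.S1_at, matched to an RNA polymerase alpha subunit, at 0.0976, with a log2 difference of −1.25. TaAffx.107708.1.S1_at, under the background level on all 4 arrays, and TaAffx.131510.1.S1_at followed at 0.115 each, both without a description. Nearest outside its cluster to aldo/keto reductase sequence 1 was Ta.5107.1.A1_at, matched to an XS zinc finger protein, at 0.144, with 6.04 and 6.13 in WT and 9.04 and 8.34 in UD-2. It was followed by TaAffx.7104.1.S1_x_at, matched to the RNA polymerase III subunit RPC8, at 0.184 and by the undescribed Ta.12049.1.A1_at at 0.206. With 4 arrays in 2 groups, probe sets with a like difference between the lines come out near each other.

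Other redox genes were listed from the annotation and from the study's descriptions, which gave 24 further probe sets in 12 clusters. Of these, limma called 4 higher and 1 lower in UD-2 at the same threshold, and 19 did not pass the threshold, where 0.430% of all probe sets were called higher and 0.281% lower. All 5 that passed were listed by the study from these arrays, so that their number is not independent evidence. The median log2 difference of the 24 was 0.04.

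The 14 probe sets named by the annotation, with their clusters, were not picked by the study from these arrays. Of the 14, 0 passed the threshold (adjusted p from limma 0.121 to 0.708), 3 had an unadjusted p under 0.05, and their log2 differences ran from −0.50 to 0.26 with a median of −0.01. At the shares called over all probe sets, a count of 0 in 14 says nothing particular about these genes. The share of all probe sets with an unadjusted p under 0.05 is not given here, so nothing is read from the 3. The catalase gene CAT1, whose enzyme breaks down hydrogen peroxide, read 13.26 and 13.41 in WT and 13.40 and 13.23 in UD-2 on its brighter probe set, Ta.442.1.S1_at. The thioredoxin gene Trx-M, for a chloroplast disulfide reductase, read 13.06 and 13.17 in WT and 13.00 and 13.23 in UD-2 on Ta.136.1.S1_at. The lines overlapped on both.

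The 4 probe sets of the gene named Prx1 in the annotation, cluster Ta.6572, had log2 differences from −0.50 to −0.22 that did not pass the threshold. The largest was that of Ta.6572.1.S1_a_at, with 10.94 and 10.94 in WT and 10.31 and 10.56 in UD-2 (−0.50, standard error 0.13). The 4 report 1 gene and are not independent of each other. The glutathione transferase gene GSTZ1, of a family that conjugates glutathione to other compounds, had log2 differences of 0.12 to 0.26 over the 4 probe sets of its clusters. The gene named PER1 had −0.04 and −0.36 on its 2 probe sets, each of which was above the background level on 3 of the 4 arrays. Ta.24688.1.S1_at, which shares a cluster with the second but is not itself named, had 0.07 and was above that level on all 4 arrays.

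The glutathione transferase cluster Ta.28354 resembled the peroxidase cluster in that its probe sets differed in their shift. Ta.28354.4.S1_at read 11.24 and 11.51 in WT and 6.95 and 7.34 in UD-2, while the other 5 had log2 differences from −0.56 to 0.36. Its span of 4.59 was the widest of the 98 clusters with 6 probe sets. By contrast, TaAffx.112045.1.S1_at and TaAffx.112045.1.S1_x_at, also matched to a glutathione transferase, had like log2 differences of 3.64 and 3.65. In WT both were under the background level, so that they were at least 4.91-fold and 6.91-fold higher in UD-2. A further glutathione transferase of the study's lists, Ta.116.1.S1_at, matched to GSTL2, read 5.91 and 5.28 in WT and 7.55 and 7.65 in UD-2. Its WT pools differed more than its UD-2 pools, unlike those of the aldo/keto reductases.

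**Figure D3:**
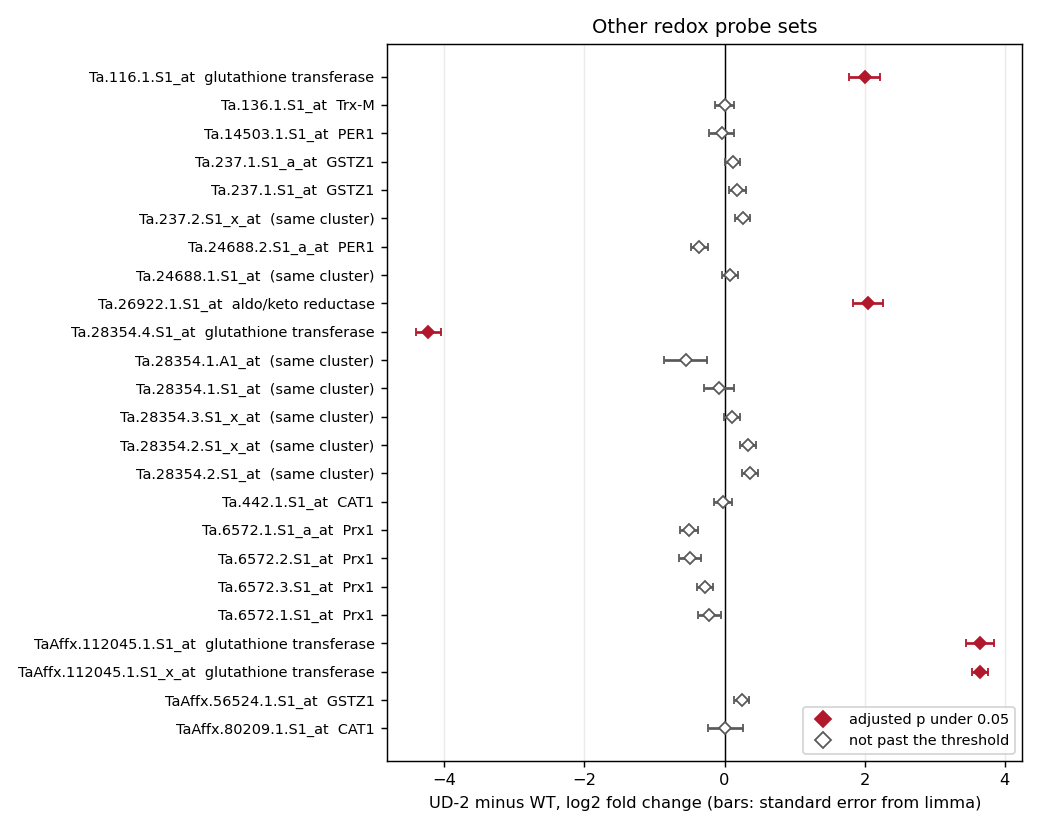
Log2 fold change of UD-2 over WT (horizontal axis) with its standard error from limma for the 24 further redox probe sets, ordered by cluster and labelled by annotation name or match, in red where the adjusted p was under 0.05. The 5 red points, at −4.23 and from 2.00 to 3.65, are all from the study's lists. The probe sets named by the annotation, with the others of their clusters, lie between −0.50 and 0.26.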

How the data were processed

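Biotin-labelled flag leaf RNA was hybridised to 4 GeneChip Wheat Genome Arrays. The authors used the Affy package (no version stated in the sources) to carry out robust multiarray average, which covers background correction, normalization between arrays and summary over probes, and deposited the resulting log2 value of each probe set on each array. R 3.1.1 and limma stand in the submitters' processing notes. An array has no depth, and precision is set by how few arrays there are.

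The deposited log2 values of 61115 probe sets, without 175 controls, were fitted by line, without covariates, in limma 3.58.1 (lmFit, then eBayes) under R 4.3.3. By the method that the study names, p-values were adjusted after Storey and Tibshirani (lambda 0.05 to 0.95 in steps of 0.05, share of unchanged probe sets 0.708), with a threshold of 0.05. More probe sets passed in each direction (263 higher and 172 lower) than the study reported. With Benjamini-Hochberg adjustment of the same fit the counts were 142 higher and 98 lower, which are much nearer to those of the study. The reason for the difference was not tested. Before use, simulated data served to test the fit. Further tables were made with Python 3.11.15 and pandas 2.3.3.

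Folds are ratios of geometric means. Where both arrays of the lower line were under the background level, the mean of the higher line was set against that level. The glutaredoxin-related cluster is Ta.23165, with Ta.23165.1.S1_at, Ta.23165.2.S1_x_at and Ta.23165.3.S1_x_at. The peroxidase cluster is Ta.23366, with an _at and an _x_at probe set on each of Ta.23366.1.S1, Ta.23366.2.S1 and Ta.23366.3.A1. The aldo/keto reductase cluster is Ta.25492, with Ta.25492.1.S1_at, Ta.25492.2.S1_at and Ta.25492.2.S1_x_at. The text names every probe set of the 3 clusters, the other aldo/keto reductase and the glutathione transferases of the study's lists with their clusters, up to 4 probe sets of the other redox genes for size, and the nearest profiles. CAT1, Trx-M, GSTZ1 and PER1 were named after their values were seen. Redox genes were taken from the annotation, which gives 1 gene for 1273 probe sets, by keywords for glutaredoxin, thioredoxin, peroxiredoxin, peroxidase, catalase, superoxide dismutase, aldo/keto reductase, glutathione transferase, glutathione and ascorbate reductases and NADPH oxidase. The members and lists were chosen with earlier results of these data known.

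Alternatives changed the adjustment (Benjamini-Hochberg, or lambda fixed at 0.5), the variance model (trend, robust), the probe sets tested (without dim ones, with controls), the scaling (quantile, cyclic loess, median), the arrays (each left out, replicate block) and the background level. Probe-level intensities, qRT-PCR and plant measurements were not analysed here.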

Additional observations from a re-analysis of the deposited data

How the results depend on the processing

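The calls among the 12 probe sets, 4 higher and 2 lower, were the same in number under the 9 other adjustments, variance models, filters and normalizations. Where tested, the log2 differences of the 12 kept their sign under these (both probe sets of aldo/keto reductase sequence 2 fall out with the dim ones), except for Ta.23366.1.S1_at, which lies near 0 and ran from −0.04 to 0.04. Replicate numbers are shared by the lines, but same-numbered pools did not deviate together (r = −0.091 across probe sets), so that the numbers were not taken as pairs. With the replicate block, 3 of the 12 were called higher, those of the glutaredoxin-related cluster, and 0 lower. Of the 24 other redox probe sets, that fit called 1 higher and 1 lower, against 16 and 11 over all probe sets. With any 1 array left out, 1 line rests on 1 array and its spread is assumed to be that of the other line. Those fits are given by their log2 differences only, since calls from them say little about the 12 or the 24. The log2 difference then ran from 8.26 to 8.65 for glutaredoxin-related sequence 2, from −1.38 to −1.20 for the _at probe set of peroxidase sequence 2, from −2.84 to −0.96 for Ta.23366.3.A1_at and from 2.09 to 2.85 for aldo/keto reductase sequence 1. Over all probe sets the calls moved from 263 higher and 172 lower to 142 and 98 with Benjamini-Hochberg adjustment, 512 and 325 with robust eBayes, 779 and 491 without dim probe sets, 400 and 285 after quantile normalization, 797 and 319 after median centring, and 16 and 11 with the block. The causes were not tested.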
